A study of Mus musculus with 6 samples.

Results

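The genes described here encode the nuclear subunits of the 5 complexes of oxidative phosphorylation. They were chosen by gene symbol alone, as all genes of the deposited table whose names mark them as subunits of complexes I to V, pseudogenes left out. This gave 85 of the 15469 genes of the table: 40 of complex I, 4 of complex II, 9 of complex III, 15 of complex IV and 17 of complex V. RNA was sequenced from 3 libraries labelled KO and 3 labelled WT. The KO libraries came from RELM-α+ peritoneal macrophages that the labels call PU.1-deleted, PU.1 being an ETS-family transcription factor of myeloid cells, and the WT libraries from control RELM-α+ peritoneal macrophages. All cells, KO and WT alike, came from CAIA mice, a model that the labels give only as an abbreviation, and were sorted on surface RELM-α, a resistin-like protein of alternatively activated macrophages, and plated before RNA extraction. The labels state neither the method or timing of the deletion nor the strain, sex or age of the mice. They also do not say whether the 3 libraries of each group are separate animals or cultures. The p-values thus reflect only how much these samples vary, and that variation may be technical. The series was designed around the part of PU.1 in ferroptosis, an iron-dependent cell death, and the comparison below sets KO libraries against WT libraries.

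Oxidative phosphorylation takes place in the inner mitochondrial membrane. Complex I takes electrons from NADH and complex II takes them from succinate. Both pass them to ubiquinone, from which complex III hands them to cytochrome c, and complex IV gives them to oxygen. The proton gradient that complexes I, III and IV build drives ATP synthase, complex V. In macrophages the balance between this pathway and glycolysis is known to shift with activation, and alternatively activated cells are known for their use of mitochondrial respiration. The subunits encoded in mitochondrial DNA were not analysed here.

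The libraries held 17280855 to 18632623 estimated counts. The transcript of Spi1, the gene of PU.1, was at 402, 380 and 431 TPM (a level scaled by transcript length and by library) in KO libraries, against 385, 417 and 370 TPM in WT libraries. The groups overlapped, with a log2 difference of -0.10 (95% interval -0.36 to 0.16; adjusted p = 0.561, edgeR) and one of -0.05 without KO replicate 1, so the level of the targeted transcript did not separate the labels. Counts per gene do not show whether part of the gene was deleted, and KO below means the libraries labelled KO. KO replicate 1 stood apart from the other KO libraries. Over tested genes its log2 CPM had a Pearson r of 0.902 with KO replicate 2 and 0.922 with KO replicate 3, lower than its r of 0.955 to 0.959 with WT, whereas those other KO libraries had an r of 0.990 with each other. Values without it are therefore given as well. The 8 macrophage markers were all present, and 1 of them passed the test between KO and WT. Their summed level was 35060, 79860 and 77820 TPM in KO replicates 1 to 3, against 63090 to 66190 TPM in WT libraries. Each of the 11 lists of markers of other cells stayed at or below 248 TPM, the highest sum being that of platelet markers in KO replicate 1. That list summed to 248, 78.9 and 72.6 TPM in KO libraries, against 120 to 186 TPM in WT libraries. Of its 5 markers 3 passed the test, against 3.32% of all genes tested, and its part in the results was not tested. Neutrophil markers summed to 57.5, 26.4 and 22.6 TPM in KO libraries, against 74.2, 80.0 and 71.6 TPM in WT libraries, with no overlap and none of the markers past the test. Their part was not tested either. Counts summed over 4 Y-linked genes were 8, 1 and 3 in KO libraries, against 2158, 2164 and 2854 in WT libraries, so sex and the KO label cannot be told apart.

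Nuclear oxidative phosphorylation genes were abundant in both groups. Their summed level was 20640, 23360 and 22540 TPM in KO libraries, against 21470, 21430 and 19080 TPM in WT libraries. The mean was 22180 ± 1397 TPM in KO libraries and 20660 ± 1368 TPM in WT libraries (SD, n = 3 each), or 2.22% and 2.07% of all TPM. The groups overlapped, and the direction of this small difference depended on the scale: summed CPM (counts scaled by library size with TMM factors, not by length) averaged 6394 ± 627 in KO libraries and 6449 ± 483 in WT libraries, a ratio of 0.992 against 1.07 in TPM. Without KO replicate 1 the TPM ratio was 1.11. In bulk RNA, fewer cells of a type and less RNA per cell cannot be told apart.

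Mean levels of the 79 genes with enough counts to be tested ran over a wide range. Cox4i1, the ubiquitous form of complex IV subunit 4, was highest at 899 TPM over all 6 libraries, and Ndufa11, a membrane-arm subunit of complex I, was lowest at 14.4 TPM. Median levels over both groups were 579 TPM for complex IV and 428 TPM for complex V, above the 131 TPM of complex I, 154 TPM of complex II and 119 TPM of complex III. TPM divides by a length that is itself an estimate, and the length behind the values was only 79.0 bases for Atp5k but 2408 bases for Ndufa11, so the order of such short or long entries is uncertain. Within a group the genes varied little, with a median coefficient of variation of 12.2% over KO libraries and 9.66% over WT libraries.

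**Figure D1:**
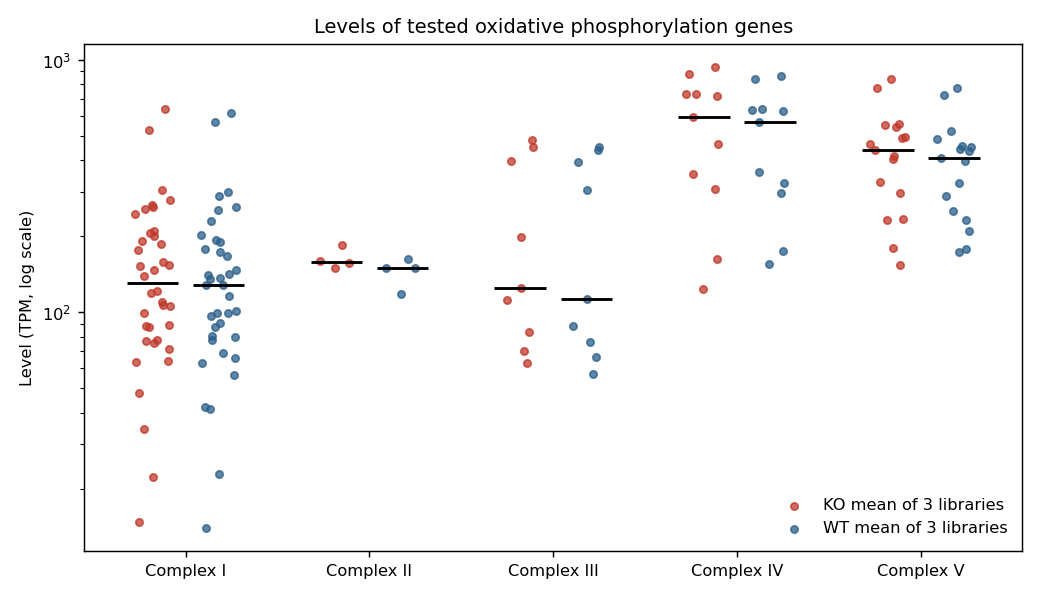
Level of each tested gene (TPM, log scale) as the mean of 3 KO libraries (left, red) and of 3 WT libraries (right, blue), by complex, with the median as a black bar. Genes of complexes IV and V have the highest medians in both groups, and the KO and WT clouds cover nearly the same range.

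No gene of oxidative phosphorylation passed the edgeR test between KO and WT. With edgeR's quasi-likelihood test and Benjamini-Hochberg adjustment over all genes, 0 of the 79 tested members had an adjusted p under 0.05, against 3.32% of all 11424 genes tested (258 higher and 121 lower in KO). At an unadjusted p under 0.05 there were 8 members, 1 higher and 7 lower in KO, or 10.1%. Of all genes it was 22.7%, with 1709 higher and 887 lower in KO. DESeq2 called 1 member, Uqcrb, lower in KO, against 10.8% of all genes. The authors' deposited table had the same single member at a q-value under 0.05, against 8.02% of its genes. Limma-voom called 0 members, against 2.93% of all genes. At its unadjusted p under 0.05 there were 10 members, and the matching share of all genes was not counted. Limma on log2 TPM called 1, Cox7a2l, higher in KO, against 7.83% of all genes. The 6 members without enough counts for the test were Ndufa4l2, Ndufb4b, Cox4i2, Cox6a2, Cox6b2 and Cox7a1.

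The differences were also small. The median log2 difference, KO minus WT, was -0.07 over members and -0.01 over all genes, and the median size, whatever the sign, was 0.12 over members and 0.28 over all genes. There were 54 members with a negative and 25 with a positive difference, against 5787 and 5637 of all genes. The central range from the 10th to the 90th percentile was -0.28 to 0.13 over members, against -0.72 to 0.62 for all genes. The sign of the small median was not stable. It was 0.10 on the log2 TPM scale, on which the median of all genes was itself 0.12, and 0.03 without KO replicate 1. The 95% interval of the difference lay within a 1.5-fold change in either direction for 67 of 79 members (84.8%, against 38.8% of all genes) and within a 2-fold change for 78 of 79 (98.7%, against 63.7%). The interval of Uqcrb alone reached beyond 2-fold. Members were also measured more precisely, with a median standard error of 0.14 against 0.17 over all genes tested, which narrows their intervals.

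**Figure D2:**
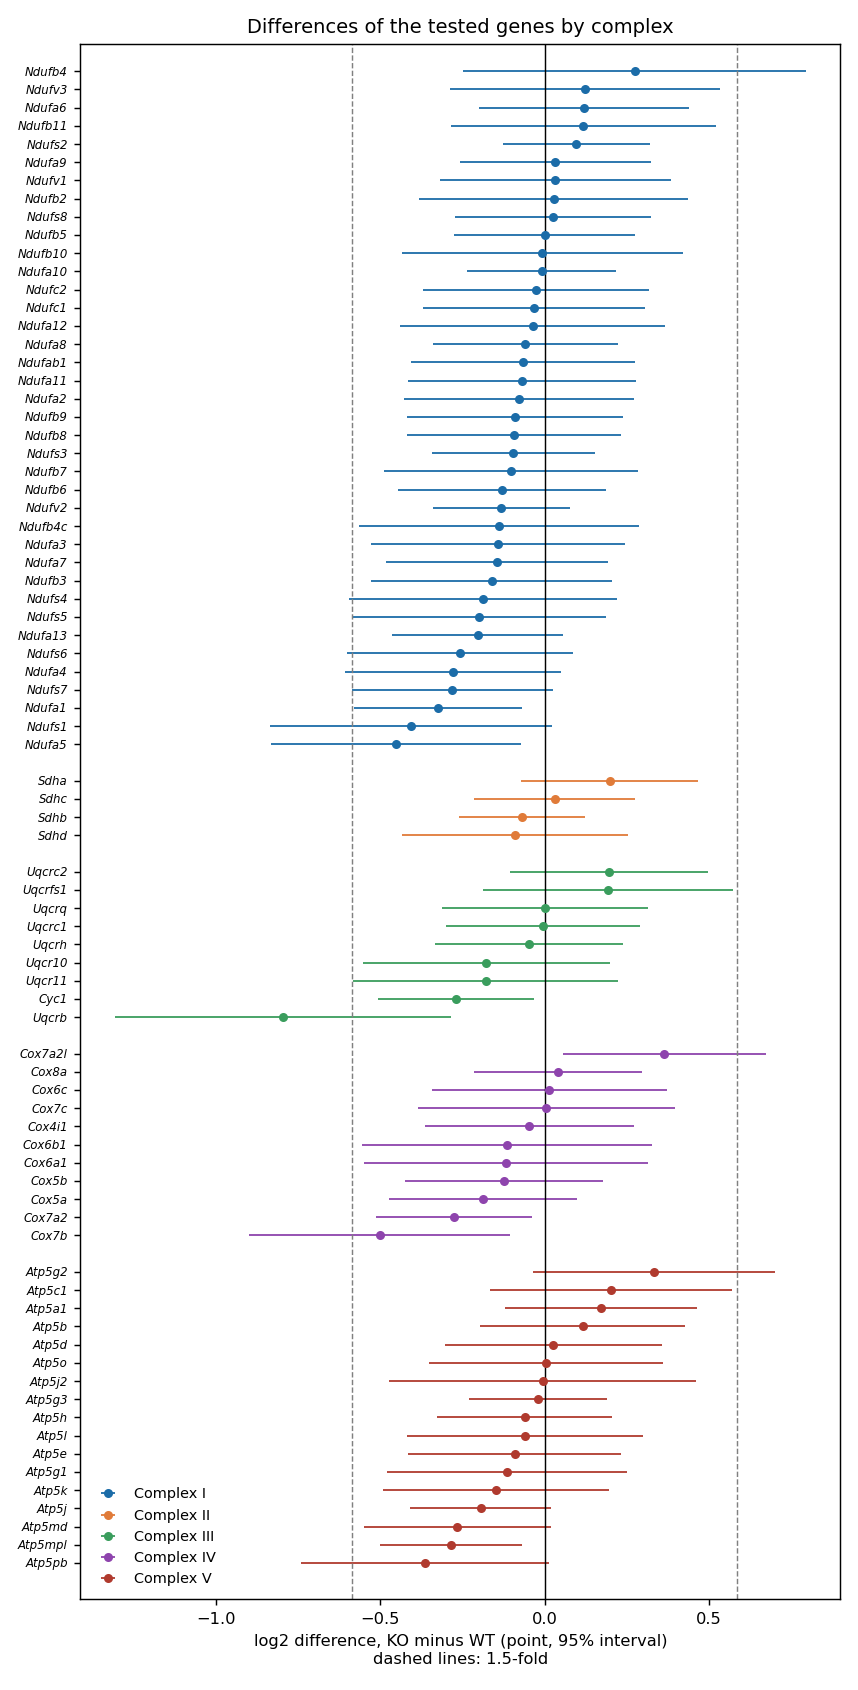
Fitted log2 difference, KO minus WT, of each tested gene with its 95% interval, by complex (point and line, 3 libraries a group); dashed lines mark a 1.5-fold change. Most intervals include 0 and stay between the dashed lines; Uqcrb lies farthest to the left at -0.80 and Cox7a2l farthest to the right at 0.36.

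Summed by complex in TPM, the groups overlapped in all but complex II. Complex I summed to 6176 ± 337 TPM in KO libraries and 5871 ± 459 TPM in WT libraries (SD, n = 3 each, as in the sums that follow). Complex II summed to 649 ± 25.3 TPM in KO libraries and 580 ± 5.78 TPM in WT libraries, with 621, 670 and 655 TPM in the KO libraries and 574, 583 and 584 TPM in the WT libraries. Complex III summed to 1982 ± 73.5 TPM in KO libraries and 1990 ± 149 TPM in WT libraries. These 3 complexes thus had KO over WT ratios of 1.05, 1.12 and 0.996 in TPM, but 0.946, 1.04 and 0.948 in CPM, where complex II averaged 514 ± 50.2 in KO libraries and 492 ± 13.2 in WT libraries. Complex IV summed to 5992 ± 505 TPM in KO libraries and 5487 ± 407 TPM in WT libraries. Complex V summed to 7379 ± 486 TPM in KO libraries and 6733 ± 372 TPM in WT libraries. Their ratios were 1.09 and 1.10 in TPM, and 0.984 and 1.03 in CPM.

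**Figure D3:**
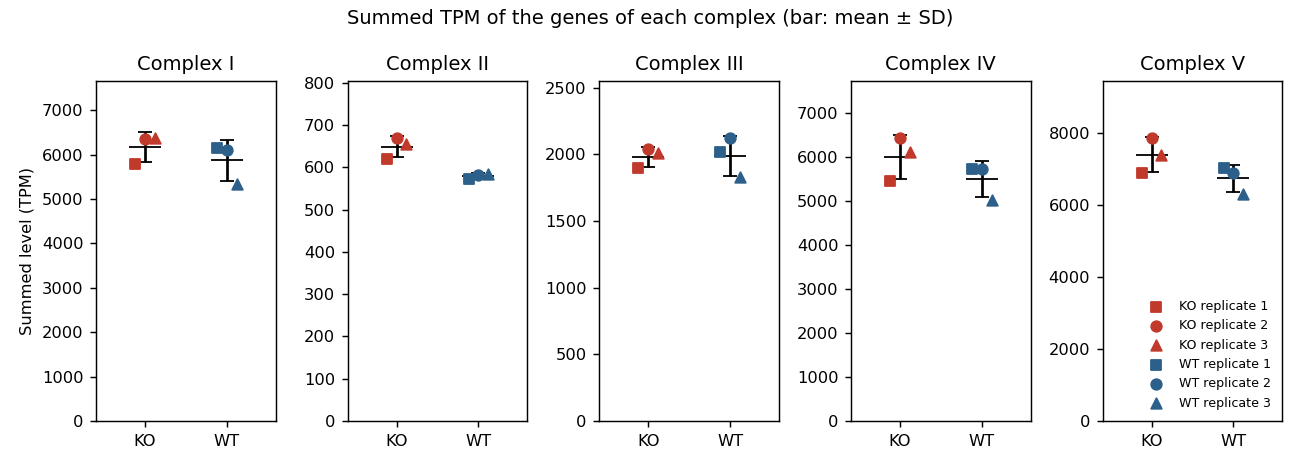
Summed TPM of the genes of each complex in each library (points; square, circle and triangle for replicates 1, 2 and 3), KO left and WT right, with mean and SD as black bars. KO and WT libraries overlap in complexes I, III, IV and V, while the 3 KO libraries of complex II lie above the 3 WT libraries.

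Complex I held 0 called genes among 38 tested, with a median log2 difference of -0.08. Its 7 nuclear core subunits, among them those that carry the flavin and the iron-sulfur clusters, ranged from -0.41 to 0.10 in log2 difference, and 4 were negative. Ndufs1, the largest of them, was at 46.2, 27.9 and 29.8 TPM in KO libraries, against 36.3, 41.2 and 46.7 TPM in WT libraries. KO replicates 2 and 3 were below all WT libraries while KO replicate 1 was within their range, and the log2 difference was -0.41 (SE 0.18, adjusted p = 0.236). Ndufs1 was chosen after its values were seen. Among the 31 tested accessory subunits, 24 were negative and the median was -0.08, or 0.03 without KO replicate 1. The 2 members of the complex with the smallest p were both accessory subunits.

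Ndufa1, an X-linked subunit of the membrane arm, was at 280, 238 and 267 TPM in KO libraries, against 296, 303 and 269 TPM in WT libraries. KO replicate 1 exceeded WT replicate 3, so the groups overlapped in TPM, though not in CPM; the log2 difference was -0.33 (SE 0.11, adjusted p = 0.143). Ndufa5, a subunit of the peripheral arm, was at 85.8, 59.1 and 80.7 TPM in KO libraries, against 95.7, 85.1 and 90.8 TPM in WT libraries. KO replicate 2 was the lowest library and only KO replicate 1 reached the WT range in TPM, while the groups did not overlap in CPM, with a log2 difference of -0.45 (SE 0.16, adjusted p = 0.162). The most abundant entries were Ndufa3, a small membrane-arm subunit, and Ndufa4, which is counted with complex I by its name but whose product is known to belong to complex IV. Ndufa3 averaged 640 ± 87.2 TPM in KO libraries and 613 ± 68.9 TPM in WT libraries, with a log2 difference of -0.14 (95% interval -0.53 to 0.25). Ndufa4 averaged 526 ± 36.1 TPM in KO libraries and 564 ± 58.9 TPM in WT libraries, with a log2 difference of -0.28 (95% interval -0.61 to 0.05).

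The 4 genes of complex II, succinate dehydrogenase, held 0 calls and stayed within a 1.5-fold change at both ends of every interval. Sdha, the flavoprotein that oxidises succinate, was at 138, 157 and 153 TPM in KO libraries, against 107, 122 and 125 TPM in WT libraries. All 3 KO libraries were above all WT libraries in TPM, while the groups overlapped in CPM; the log2 difference was 0.20 (SE 0.11, adjusted p = 0.326). Sdhb, the iron-sulfur subunit, averaged 159 ± 3.50 TPM in KO libraries and 150 ± 3.39 TPM in WT libraries, with a log2 difference of -0.07 (95% interval -0.26 to 0.12). The membrane anchor Sdhc averaged 184 ± 7.41 TPM in KO libraries and 162 ± 7.78 TPM in WT libraries, with a log2 difference of 0.03 (95% interval -0.21 to 0.28). With the length and GC offsets it was -0.10, and -0.21 (adjusted p = 0.0158, edgeR) when KO replicate 1 was also left out. The other anchor, Sdhd, averaged 156 ± 20.1 TPM in KO libraries and 150 ± 3.55 TPM in WT libraries, with a log2 difference of -0.09 (95% interval -0.43 to 0.25). With the offsets and without KO replicate 1, Sdhb (-0.31, adjusted p = 0.00758, edgeR) and Sdhd (-0.23, adjusted p = 0.022) were called lower as well. Sdha (0.02, adjusted p = 0.828) was not called. That fit called 56.7% of all genes.

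Complex III contained the member with the largest difference. Uqcrb, the ubiquinone-binding protein of the complex (chromosome 13, 66900576 to 66905350, minus strand, GRCm38), was at 271, 143 and 183 TPM in KO libraries, against 301, 305 and 306 TPM in WT libraries. Its counts were 830, 506 and 629 in KO libraries, against 1062, 1055 and 977 in WT libraries. All KO libraries were below all WT libraries, which lay close together, and KO replicate 1 was the nearest to them. The fitted level in KO was 0.576 of that in WT (95% interval 0.404 to 0.821), a log2 difference of -0.80 (SE 0.21) that missed the threshold (adjusted p = 0.0983, edgeR). DESeq2 gave it an adjusted p of 0.0127, and the authors' deposited table a log2 fold change of -0.80 with a q-value of 0.0158. With offsets for transcript length and GC content the difference was smaller, at -0.34, and its GC content of 42.2% was below the 52.2% median of members.

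Without the offsets, no other gene of complex III had a difference of that size. Cyc1, cytochrome c1, was at 74.6, 68.7 and 67.8 TPM in KO libraries, against 79.0, 77.7 and 72.2 TPM in WT libraries. In TPM KO replicate 1 lay inside the WT range and the other KO libraries below it, while in CPM the groups did not overlap. The log2 difference was -0.27 (SE 0.097, adjusted p = 0.175), and -0.25 (adjusted p = 0.0835) without KO replicate 1. Uqcrfs1, the Rieske iron-sulfur protein, and Uqcrc2, a core protein, had log2 differences of 0.19 and 0.20 and were chosen after their values were seen. With the length and GC offsets the difference of Uqcrc2 was 0.39, larger in size than that of Uqcrb. When KO replicate 1 was also left out, it was 0.55 (adjusted p = 0.000158, edgeR), in a fit that called 56.7% of all genes. The hinge protein gene Uqcrh averaged 481 ± 21.4 TPM in KO libraries and 441 ± 39.6 TPM in WT libraries, with a log2 difference of -0.05 (95% interval -0.33 to 0.24). The small subunit gene Uqcr11 averaged 452 ± 47.7 TPM in KO libraries and 450 ± 62.6 TPM in WT libraries, with a log2 difference of -0.18 (95% interval -0.58 to 0.23). Uqcrq, the lowest of the complex at 59.8 TPM over all libraries, had a log2 difference of 0.00 (95% interval -0.31 to 0.32).

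In complex IV, whose nuclear subunits surround a mitochondrially encoded core, 0 of 11 tested genes were called and the median log2 difference was -0.11. Cox7a2l, also known as a factor that joins complexes III and IV in supercomplexes (chromosome 17, 83501917 to 83514333, minus strand, GRCm38), was at 410, 505 and 471 TPM in KO libraries, against 311, 335 and 325 TPM in WT libraries. All KO libraries were above all WT libraries, and KO replicate 1 was again the nearest to them. The log2 difference was 0.36 (SE 0.13, 95% interval 0.05 to 0.67; adjusted p = 0.165, edgeR), and on the log2 TPM scale it was called with an adjusted p of 0.0382 (limma). Among the 79 tested members it was the only one higher in every KO library than in every WT library in CPM. Cox7b, an X-linked small subunit, was at 155, 93.6 and 122 TPM in KO libraries, against 160, 154 and 154 TPM in WT libraries. In TPM KO replicate 1 was among the WT libraries and the other KO libraries below them, while in CPM the groups did not overlap, with a log2 difference of -0.50 (SE 0.16, adjusted p = 0.144). With the length and GC offsets the difference of Cox7b was 0.04, and its GC content, 42.0%, was low like that of Uqcrb. Sex cannot be told apart from the KO label for any member, X-linked or not, and its part in their values was not tested. The 3 X-linked members were Cox7b, Ndufa1 and Ndufb11. Ndufb11 went the other way, with a log2 difference of 0.12, and 0.28 without KO replicate 1. The most abundant members, Cox4i1 and Cox6b1, had log2 differences of -0.05 (95% interval -0.36 to 0.27) and -0.11 (95% interval -0.56 to 0.33).

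Complex V, ATP synthase, had 0 calls among 17 genes. The 5 genes of its catalytic head and central stalk had a median log2 difference of 0.12, and 4 of them were positive. Atp5a1 and Atp5b, which form the catalytic head, had log2 differences of 0.17 and 0.12, and Atp5c1, the rotating central shaft, 0.20; these 3 were chosen after their values were seen. All 5 of the other membrane subunits were negative (-0.28 to -0.01), as were 3 of the 4 genes of the peripheral stalk, which holds the head still. Atp5pb, the b subunit of that stalk, was at 191, 116 and 154 TPM in KO libraries, against 176, 175 and 181 TPM in WT libraries. In TPM KO replicate 1 was the highest of all 6 libraries and KO replicate 2 the lowest, whereas in CPM all KO libraries were below all WT libraries, and the log2 difference was -0.36 (SE 0.15, adjusted p = 0.230). Atp5mpl, a small membrane subunit, was at 429, 413 and 401 TPM in KO libraries, against 438, 464 and 421 TPM in WT libraries. The groups overlapped in TPM at KO replicate 1 but not in CPM, with a log2 difference of -0.28 (SE 0.089, adjusted p = 0.135), and -0.27 (adjusted p = 0.0573) without KO replicate 1. With the length and GC offsets the direction turned, to 0.10 with all libraries and 0.22 (adjusted p = 0.0376, edgeR) without KO replicate 1. The latter fit called 56.7% of all genes. Atp5l, subunit g, and Atp5e, subunit epsilon, were the most abundant of the complex, with log2 differences of -0.06 (95% interval -0.42 to 0.30) and -0.09 (95% interval -0.42 to 0.23). Atpif1, the inhibitor that stops ATP synthase from running backwards and no member by the rule, was at 174, 164 and 171 TPM in KO libraries, against 207, 200 and 170 TPM in WT libraries, with a log2 difference of -0.34 (adjusted p = 0.178).

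**Figure D4:**
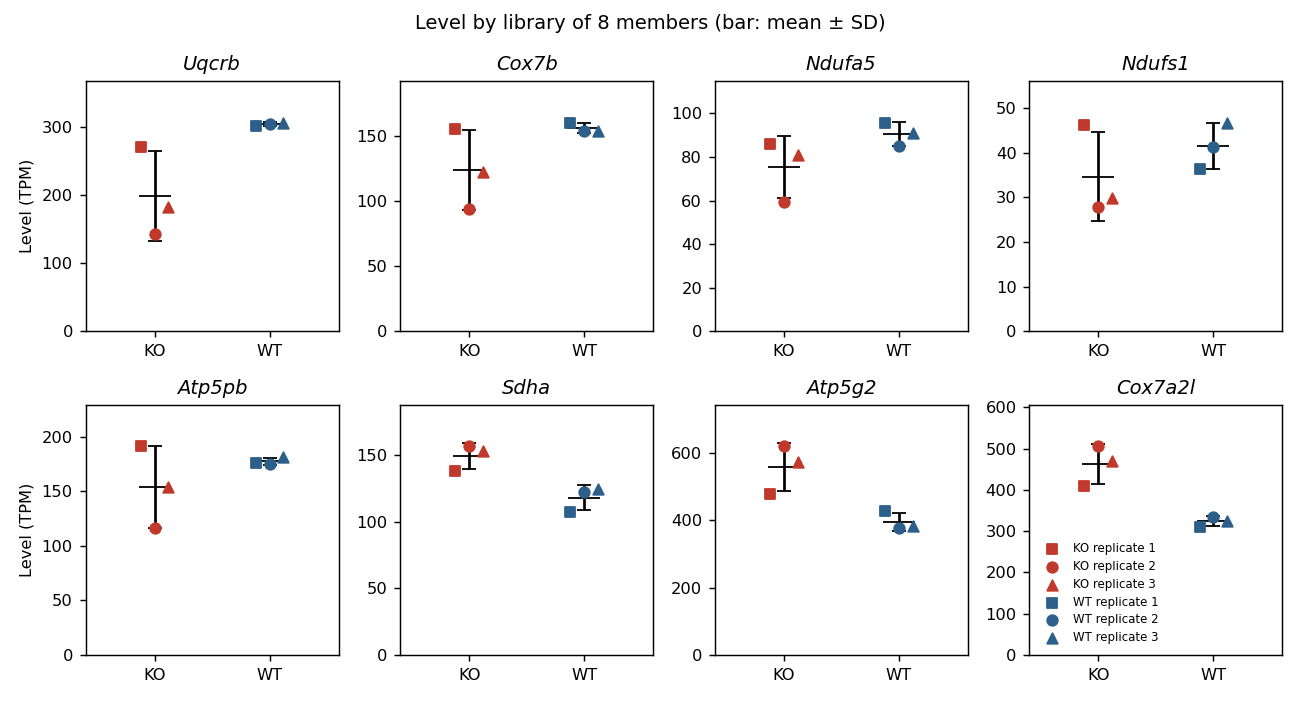
Level (TPM) by library of 8 members chosen after their values were seen, KO left and WT right, with the mean and SD of 3 libraries as black bars. In Uqcrb, Cox7b and Ndufa5 KO replicate 1 (square) lies nearer the WT libraries than KO replicates 2 and 3 do on average, and in Sdha, Atp5g2 and Cox7a2l all KO libraries lie above all WT libraries.

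Groups that did not overlap in CPM were counted as a second description. There were 11 such genes among the 79 tested members, or 13.9%, against 31.0% of all genes tested. Of these members 1 had all KO libraries higher and 10 had all KO libraries lower, against 2106 and 1439 of the 11424 genes tested. The tested member with higher KO values was Cox7a2l. Cox6a2, too low for the test, also had higher CPM in every KO library, on at most 4 counts a library. Those with lower KO values were Uqcrb, Cyc1, Cox7b, Cox7a2, Ndufa1, Ndufa5, Atp5pb, Atp5j, Atp5md and Atp5mpl.

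The outcome depended on KO replicate 1. The median deviation of members from the WT mean, on log2(CPM + 2), was -0.21 in KO replicate 1, and 0.02 and -0.02 in KO replicates 2 and 3, against 0.09, 0.05 and -0.14 in WT replicates 1 to 3. WT replicate 3 thus also lay low. The summed macrophage marker level of KO replicate 1, 35060 TPM, was also the lowest of the 6 libraries, and its part in these values was not tested. The median size of the deviation was 0.21, 0.14 and 0.10 over members in KO replicates 1 to 3, against 0.18, 0.31 and 0.28 over all genes; in WT replicate 3 it was 0.14 over members and 0.10 over all genes. Members therefore lay farther from WT than genes in general in KO replicate 1, and nearer to it in the other KO libraries, as medians.

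**Figure D5:**
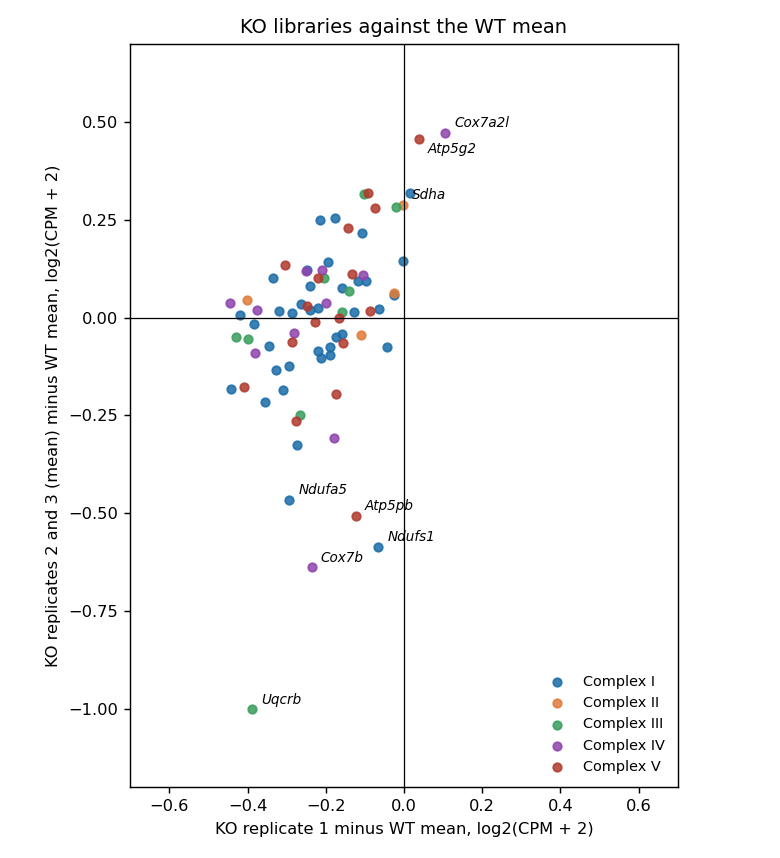
Deviation of each tested gene from the mean of the WT libraries on log2(CPM + 2), for KO replicate 1 (x axis) and for the mean of KO replicates 2 and 3 (y axis), coloured by complex. Nearly all genes lie left of 0 on the x axis while they spread around 0 on the y axis, with Uqcrb lowest and Cox7a2l highest.

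Without KO replicate 1, 8 members were called higher and 7 lower in KO of 80 tested (edgeR, 2 KO against 3 WT libraries), or 18.8%, against 49.6% of all 11677 genes tested. The genes higher in KO were Cox7a2l, Atp5g2, Atp5c1, Uqcrfs1, Uqcrc2, Sdha, Atp5a1 and Atp5b, by 1.19 to 1.41-fold. They included 3 genes of the ATP synthase head and shaft, the flavoprotein of complex II and 2 subunits of complex III. Those lower in KO were Uqcrb at 0.491 of the WT level, Cox7b at 0.643, Ndufs1 at 0.662, Ndufa5 at 0.706, Atp5pb at 0.713, Ndufa1 at 0.797 and Cox7a2 at 0.809. Uqcrb then had an adjusted p of 0.000343 and Cox7a2l one of 0.00171. The median log2 difference was 0.03 over members and 0.02 over all genes. By complex it was 0.03 for complex I, 0.07 for complex II, 0.03 for complex III, 0.05 for complex IV and 0.03 for complex V. The calls were 3 lower in complex I, 1 higher in complex II, 2 higher and 1 lower in complex III, 1 higher and 2 lower in complex IV, and 4 higher and 1 lower in complex V. The test then rested on KO replicates 2 and 3, whose correlation is given above.

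Transcript length and GC content moved with the differences of KO replicates 2 and 3. Smooth terms of both accounted for 23.4% of the variance over genes of KO replicates 2 and 3 minus WT, against 2.84% for KO replicate 1 minus WT. Members had a median GC content of 52.2%, against 50.3% over all genes tested, and a median length behind their values of 467 bases, against 2650. Over genes, the log2 difference without KO replicate 1 correlated with GC content at r = 0.207 (Spearman 0.069) over 78 members and r = 0.346 (Spearman 0.393) over 11241 genes; these points share the same libraries and genes are not independent replicates. With offsets for length and GC content and all 6 libraries, 0 of 78 members were called, against 5.46% of all genes, and the direction turned in 20 of the 78, Ndufa4, Ndufs4, Sdha, Atp5a1 and Atp5b among them. With the offsets and without KO replicate 1, 4 members were called higher and 42 lower, or 59.0%, against 56.7% of 10853 genes, with medians of -0.20 over members and -0.13 over all genes. Of the 15 members called without KO replicate 1 and without offsets, 8 were called in the same direction with them. These were Uqcrb, Ndufs1, Ndufa5, Atp5pb, Ndufa1 and Cox7a2 on the lower side and Uqcrc2 and Cox7a2l on the higher side. Uqcrb then had a log2 difference of -0.36 and Cox7a2l one of 0.19, the smallest in size among these genes. The others were at -0.86 for Ndufa5, -0.76 for Atp5pb, -0.70 for Ndufs1, -0.64 for Cox7a2, -0.53 for Ndufa1 and 0.55 for Uqcrc2.

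Several subunits exist as paired forms, one used in most tissues and others known from muscle, lung, testis or low oxygen. Cox4i1, Cox6a1, Cox6b1 and Ndufa4 made up at least 99.5% of the TPM of their families in every library, whereas the Cox7a, subunit c and Ndufb4 families were shared between genes. Cox6a1 gave 99.9% and Cox6b1 99.6% in KO libraries, against 99.9% and 99.7% in WT libraries. The muscle form Cox6a2 held 3, 4 and 4 counts in KO libraries, against 2, 2 and 1 in WT libraries, and the testis form Cox6b2 5, 13 and 16 counts in KO libraries, against 9, 9 and 8 in WT libraries. Cox4i2, the form of lung and low oxygen, held 0, 2 and 4 counts in KO libraries and 0 counts in each WT library. Ndufa4l2, a hypoxia-induced relative of Ndufa4, held 1, 9 and 9 counts in KO libraries, against 0, 1 and 1 in WT libraries. KO replicates 2 and 3 held the higher counts of Cox4i2 and Ndufa4l2, but all were too few for the test. Cox7a1, the heart and muscle form, held 8, 9 and 7 counts in KO libraries, against 9, 12 and 3 in WT libraries.

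Within the Cox7a family the share of TPM from Cox7a2l was 68.6, 75.5 and 75.6% in KO libraries, against 62.5, 64.9 and 65.2% in WT libraries. The groups did not overlap, with means of 73.2 ± 3.97% in KO libraries and 64.2 ± 1.46% in WT libraries (SD, n = 3 each). The share of the ubiquitous form Cox7a2 was 25.8 ± 3.86% in KO libraries and 34.7 ± 1.41% in WT libraries. Cox7a2 was at 181, 158 and 147 TPM in KO libraries, against 180, 173 and 172 TPM in WT libraries, KO replicate 1 being highest, with a log2 difference of -0.27 (adjusted p = 0.171). Among the 3 genes of subunit c, which forms the rotating ring of ATP synthase, Atp5g2 took 41.4, 48.3 and 45.7% in KO libraries, against 40.0, 36.9 and 39.7% in WT libraries. These groups did not overlap either. Atp5g2 itself was at 479, 620 and 574 TPM in KO libraries, against 426, 377 and 385 TPM in WT libraries. All KO libraries were above all WT libraries in TPM, with a log2 difference of 0.33 (SE 0.15, adjusted p = 0.253). The shares were not tested, and Atp5g2 was chosen after its values were seen. Ndufb4 and Ndufb4c took 57.2 ± 7.41% and 42.3 ± 6.95% of their family in KO libraries and 50.7 ± 3.81% and 49.1 ± 3.58% in WT libraries; their near-identical sequences, like those of the subunit c genes, leave the split of reads uncertain.

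Genes that build or feed the complexes gave 1 call in 10 lists, while 3.32% of all genes tested were called. Pcx, pyruvate carboxylase, which makes oxaloacetate for the citrate cycle, was at 6.25, 2.85 and 3.56 TPM in KO libraries, against 1.21, 1.14 and 1.15 TPM in WT libraries. The groups did not overlap, KO replicate 1 being highest, and Pcx rose in KO with a log2 difference of 1.69 (SE 0.30, adjusted p = 0.0450, edgeR). The call was lost with limma-voom, a replicate block or the length and GC offsets, and when any 1 of the other 5 libraries was left out; without KO replicate 1 the difference was 1.37 (adjusted p = 0.000548). It was the only one called of 18 tested genes of the citrate cycle and pyruvate dehydrogenase, whose median was 0.09. Without KO replicate 1, 5 genes of that list were called higher and 4 lower of 18, close to the 49.6% of all genes.

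Of the assembly factors, 0 were called, and 2 of 18 tested for complex I, 0 of 4 for complex II, 0 of 8 for complex III, 3 of 27 for complex IV and 0 of 6 for complex V had an unadjusted p under 0.05, against 22.7% of all genes tested. DESeq2 called 1 factor of complex I and 2 of complex IV, against 10.8% of all genes. Tmem126b, needed to assemble the membrane arm of complex I, was at 23.7, 16.3 and 20.3 TPM in KO libraries, against 27.4, 29.0 and 38.3 TPM in WT libraries. The groups did not overlap, KO replicate 2 being lowest, with a log2 difference of -0.81 (adjusted p = 0.0691, edgeR). Cox15, which makes the haem of complex IV, was at 11.5, 11.2 and 10.03 TPM in KO libraries, against 6.62, 7.15 and 8.03 TPM in WT libraries. Every KO library exceeded every WT library, with a log2 difference of 0.44 (adjusted p = 0.0687). The members with the smallest p of the remaining assembly lists were Sdhaf4 for complex II (log2 difference -0.27, adjusted p = 0.252), Ttc19 for complex III (-0.77, adjusted p = 0.328) and Tmem242 for complex V (0.29, adjusted p = 0.250). Without KO replicate 1, Tmem126b (-0.89, adjusted p = 0.00337), Ttc19 (-1.39, adjusted p = 0.000483), Cox15 (0.46, adjusted p = 0.00808) and Tmem242 (0.42, adjusted p = 0.00728) passed the test, as did 49.6% of all genes, and Sdhaf4 (-0.25, adjusted p = 0.144) did not.

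The lists around the chain gave 0 calls as well, and their counts below stand against 22.7% of all genes at an unadjusted p under 0.05 and 10.8% called by DESeq2. Of 17 electron carriers and coenzyme Q genes, 4 had an unadjusted p under 0.05 and DESeq2 called 3. Etfa, which carries electrons from fatty acid oxidation, was at 57.3, 38.9 and 49.4 TPM in KO libraries, against 59.9, 72.2 and 74.6 TPM in WT libraries. All KO libraries were below all WT libraries, KO replicate 1 narrowly, with a log2 difference of -0.66 (adjusted p = 0.0638). Of 7 tested carriers of ADP, phosphate and anions, 2 had an unadjusted p under 0.05 and DESeq2 called 1. That was the uncoupling protein gene Ucp2, at 669, 673 and 744 TPM in KO libraries, against 834, 856 and 822 TPM in WT libraries. Every KO library was below every WT library, with a log2 difference of -0.42 (adjusted p = 0.0891, edgeR). Among 17 tested regulators of mitochondrial biogenesis, 2 had an unadjusted p under 0.05 and DESeq2 called 0; the smallest p was that of Polg, the mitochondrial DNA polymerase (log2 difference 0.24, adjusted p = 0.175). Among 22 import genes, 3 had an unadjusted p under 0.05 and DESeq2 called 0; the smallest p was that of Timm8b, an intermembrane space chaperone (log2 difference -0.34, adjusted p = 0.135). Without KO replicate 1, Etfa (-0.74, adjusted p = 0.00230), Ucp2 (-0.34, adjusted p = 0.0139) and Polg (0.31, adjusted p = 0.0179) passed the test, again beside 49.6% of all genes, and Timm8b (-0.27, adjusted p = 0.0666) did not.

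The promoters of the members were searched for the core letters of binding motifs, since PU.1 is the factor that the KO label names and other ETS factors, NRF1 and YY1 are known regulators of respiratory genes. RefSeq windows of GRCm38.p6, 250 bases before to 50 after a start, were found for 68 of the 85 members. On either strand the PU.1 letters GAGGAAGT were in windows of 3 members (4.41%), against 3.69% of the 27025 genes of the RefSeq table and 4.04% of the tested genes in it. The ETS and GABP letters CCGGAAGT were in 7.35% of members, against 4.31% of all and 9.81% of tested genes. The NRF1 letters GCGCATGC were in 14.7% of members, against 3.05% of all and 6.25% of tested genes. The YY1 letters AAGATGGC were also in 14.7% of members, against 3.19% of all and 5.60% of tested genes. The PU.1 and the ETS letters share the run GGAAGT. A match describes the letters in the window and is not a binding site. The 3 windows with the PU.1 letters are shown because PU.1 is the factor that the KO label names. The sequences run 5′ to 3′ on the minus strand, the strand of each gene, and capitals mark these letters or their reverse complement. The windows are chr6:24527641-24527940 for Ndufa5, chr13:114388045-114388344 for Ndufs4 and chr16:84834927-84835226 for Atp5j.
Ndufa5: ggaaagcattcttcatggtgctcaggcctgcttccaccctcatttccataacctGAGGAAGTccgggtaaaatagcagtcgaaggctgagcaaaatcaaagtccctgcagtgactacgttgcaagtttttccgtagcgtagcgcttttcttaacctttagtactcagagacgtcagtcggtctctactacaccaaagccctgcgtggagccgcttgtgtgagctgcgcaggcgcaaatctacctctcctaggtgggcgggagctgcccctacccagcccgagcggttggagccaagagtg
Ndufs4: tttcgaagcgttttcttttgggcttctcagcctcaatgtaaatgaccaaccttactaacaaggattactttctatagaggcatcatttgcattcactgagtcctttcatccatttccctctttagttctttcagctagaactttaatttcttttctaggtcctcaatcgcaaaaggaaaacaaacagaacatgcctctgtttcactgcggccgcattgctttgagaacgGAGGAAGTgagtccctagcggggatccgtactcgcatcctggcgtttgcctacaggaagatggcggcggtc
Atp5j: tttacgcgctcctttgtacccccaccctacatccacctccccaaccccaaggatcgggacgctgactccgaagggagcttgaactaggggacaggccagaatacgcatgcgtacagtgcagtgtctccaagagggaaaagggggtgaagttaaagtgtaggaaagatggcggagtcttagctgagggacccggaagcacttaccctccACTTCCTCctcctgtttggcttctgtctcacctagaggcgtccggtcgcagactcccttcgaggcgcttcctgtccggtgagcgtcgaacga

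The letters began 196 bases before the start in Ndufa5 and 21 bases before it in Ndufs4, and in Atp5j they lay on the other strand, 42 bases before it. Ndufa5 and Atp5j each also had a window at another start, which lacked these letters. None of the 3 genes passed the test. The log2 differences were -0.45 for Ndufa5, as above, -0.19 (95% interval -0.59 to 0.22; adjusted p = 0.505) for Ndufs4, a peripheral-arm subunit of complex I, and -0.19 (95% interval -0.41 to 0.02; adjusted p = 0.254) for Atp5j, a peripheral stalk subunit of complex V. Ndufs4 was at 20.4, 22.3 and 24.0 TPM in KO libraries, against 26.2, 21.5 and 20.7 TPM in WT libraries, and the groups overlapped. Atp5j was at 247, 219 and 231 TPM in KO libraries, against 250, 251 and 251 TPM in WT libraries. All KO libraries of Atp5j were below all WT libraries, KO replicate 1 narrowly.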

How the data were processed

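RNA of sorted RELM-α+ peritoneal macrophages was measured in 3 KO and 3 WT libraries, grouped by sample title. The submitters' processing notes name fastp 0.18.0 and the build GRCm39; the aligner, counter, strand setting and annotation were not given in the sources used here, and coordinates, which are the table's own, fit GRCm38. The authors deposited estimated counts per gene, not normalized, and also FPKM and TPM values, as the file headers name them. Their deposited log2 fold changes, p-values and q-values come from DESeq2, per the file headers. Estimated counts were rounded before testing. Libraries held between 17280855 and 18632623 counts.

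Genes kept by filterByExpr were scaled by TMM and tested with the quasi-likelihood test of edgeR 4.0.16 (robust, group only, R 4.3.3), with Benjamini-Hochberg adjustment over all genes tested and an adjusted p under 0.05 as the threshold; the fit was first tested on simulated data. Differences are KO minus WT. Alternatives were RLE and upper-quartile factors, a minimum mean of 10 CPM, no filter, an adjusted p under 0.01, DESeq2 1.42.0, limma-voom and limma 3.58.1 on log2(TPM + 1), a replicate block, length and GC offsets (mgcv 1.9.3, for 81 of 85 members with both values) and each library left out; leaving out KO replicate 1 together with the offsets was chosen after seeing the data. Lengths came from counts and FPKM, GC content from GENCODE M21 transcripts of the nearest length.

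Members and lists were chosen with earlier results of these data known. Named members were, per complex, called genes or otherwise the 2 with the smallest p, the 2 most abundant and the least abundant, all of complex II and the tissue-restricted forms with their partners. From each list up to 3 called genes were named, or otherwise the one with the smallest p. Replicate numbers did not pair the samples. How reads shared between paralogs, pseudogenes and overlapping genes were assigned is unknown.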

Additional observations from a re-analysis of the deposited data

How the results depend on the processing

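Over 17 alternatives, 500 of the 609 differences refitted for 36 named genes kept their side of the threshold and were not counted as changed. Small differences among them could still change sign, as that of Cox4i1 did, from -0.05 to 0.04 without KO replicate 1. Of the rest, 49 became significant, 9 lost significance, 49 moved by more than the spread and 2 reversed, both past the threshold. Leaving out KO replicate 1 with the length and GC offsets reversed Sdhc (-0.21) and Atp5mpl (0.22), moved the median of members to -0.20, gave 4 members higher and 42 lower (2144 and 4005 of all genes) and took Spi1 past the threshold at -0.30. With each library left out in turn, 0 to 8 members were called higher and 0 to 7 lower, and 3 to 2761 of all genes higher and 2 to 3032 lower; the upper ends came without KO replicate 1. DESeq2 called 885 genes higher and 459 lower, with 1 member lower. Limma on log2 TPM called 779 genes higher with 1 member higher, a median of members of 0.10 and a Spi1 difference of 0.0482. Of called genes, 68.1% were higher in KO, against 52.0% with the offsets, 87.0% in log2 TPM and 34.9% with the offsets and without KO replicate 1. A mean of at least 10 CPM left 167 genes higher and 64 lower, an adjusted p under 0.01 left 8 and 7, and the offsets gave 284 lower. The cause of these shifts was not tested.

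Same-numbered KO and WT libraries deviated with correlations of -0.162, 0.246 and -0.271, so the replicate numbers were not taken as pairs. With a replicate block 0 genes were called higher and 0 lower, members included, and with the block and the offsets 28 higher and 29 lower. With 3 libraries a group, the median standard error of a member's log2 difference was 0.14, which limits what can be seen in single members.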
